A study of Mus musculus with 12 samples.

Results

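The genes described here are the SNAREs, the synaptotagmins and their close partners in membrane fusion and secretion. They were chosen by symbol as every row named for a numbered syntaxin (Stx), a syntaxin binding protein (Stxbp), a VAMP, a member of the SNAP-25 family (Snap23, Snap25, Snap29 and Snap47), a numbered synaptotagmin (Syt) or synaptotagmin-like protein (Sytl), or a member of the Unc13 family. The rule gave 61 of the 35303 named symbols in the count table. Vamp7 itself was not analysed here, although its processed pseudogene Vamp7-ps was.

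The counts come from bulk RNA-seq of 12 libraries of mouse myeloid-derived suppressor cells (MDSCs), immunosuppressive myeloid cells that the study developed as a cell therapy for multiple sclerosis. There were 3 groups of 4 biological replicates, all of wild-type genotype, and all were kept with IL-6 before RNA was extracted. The first group was unmodified MDSCs (MDSC), the second MDSCs carrying blank PLGA nanoparticles on their surface (MDSC-NP-Blk), and the third MDSCs carrying rapamycin-loaded nanoparticles (CITED). Rapamycin inhibits mTOR, a kinase that couples nutrients to growth. By the study's methods, the cells were grown from the bone marrow of young female C57BL/6 mice with IL-6 and GM-CSF, purified by CD11b and Gr1, and form a mixture of polymorphonuclear and monocytic cells. Nanoparticles were clicked onto azide groups that an azido sugar had placed on the cells, and whether unmodified MDSCs received that sugar is not stated in the sources used here. The total count of a library ran from 20604809 to 37855478.

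Membrane fusion is driven by SNAREs on a vesicle and on its target membrane, whose helices zip into a bundle. The bundle takes a Qa and a Qc helix from syntaxins or related proteins, a Qb helix, and an R helix from a VAMP, and proteins of the SNAP-25 family give both a Qb and a Qc helix. Munc18 proteins (Stxbp) and Munc13 proteins (Unc13) prepare the syntaxin for assembly, synaptotagmins couple fusion to calcium, and synaptotagmin-like proteins tether vesicles that carry Rab27. In myeloid cells this machinery releases granules and cytokines and fuses endosomes, phagosomes and lysosomes.

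The labelled cell type was checked before the results. All 9 listed MDSC markers had more than 3 counts in every library, and S100a8 and S100a9 had mean CPM (counts scaled to a common library size) of 10658 or higher in each group. A tissue label names the CNS, but of 8 neuronal and glial markers, Rbfox3, Map2 and Gfap were at 0 in every library, while 3 had more than 3 counts in each. The summed CPM of this list was 75.4 to 95.6, nearly all from Mbp, a myelin gene with group means of 77.2 to 86.8, and Syn1 had means of 2.65 to 2.79. Neutrophil precursor markers (Mpo, Elane, Prtn3, Ctsg and Ms4a3) moved with the groups. Their summed CPM was 2715 to 2955 in MDSC, 1394 to 1497 with blank particles and 329 to 367 in CITED, and 5 of 5 fell in each of the 3 comparisons. The summed CPM of 7 neutrophil markers was 17444 to 18445, 25390 to 26067 and 18842 to 20537, and that of 7 monocyte and macrophage markers was 825 to 900, 1096 to 1201 and 1166 to 1200. Both sums hide opposite moves in CITED against MDSC. At an adjusted p below 0.05, 4 neutrophil markers were higher and 3 lower, and 2 monocyte and macrophage markers were higher and 4 lower. From MDSC to CITED, mean CPM went from 1877 to 5182 for Mmp8, 7030 to 5281 for Ngp, 459 to 915 for Csf1r and 145 to 64.2 for Ccr2. Other lists had lower sums than the monocyte and macrophage list. In the same group order, dendritic cell markers summed to 467 to 503, 330 to 348 and 406 to 446 CPM. Mast cell and basophil markers gave 458 to 496, 521 to 575 and 293 to 313. Megakaryocyte and platelet markers gave 189 to 211, 284 to 303 and 308 to 337. Over all groups the sums were 2.47 to 7.26 for T, B and NK cells, with Ncr1 at 0, and 1.4 to 2.74 for erythroid cells. The part of these shifts in the results below was not tested, and in bulk RNA fewer cells of a type cannot be told apart from less RNA per cell. The MDSC-NP-Blk libraries also fell into pairs, replicates 1 and 4 and replicates 2 and 3. Chi-square per gene was 5.69 and 5.91 within these pairs and 15.7 to 21.8 across them, against 4.72 to 8.89 among MDSC and 5.66 to 9.60 among CITED libraries.

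Of the 61 genes, 31 had a mean normalized count above 50 over the 12 libraries. A normalized count is a count divided by the effective size of its library, on the scale of the mean library. In every library 10 were at 0, namely Snap25, Vamp9, Stxbp5l, Syt1, Syt4, Syt10, Syt14, Syt16, Sytl5 and Unc13c, and Stx19, Syt6 and Syt15 had 1 count each over all libraries. The remaining 48 were tested, and 3 of them (Stxbp3-ps, Sytl2 and Syt17) had 3 counts or fewer in every library. The neuronal syntaxin Stx1a and the synaptotagmins Syt2, Syt3, Syt5, Syt8, Syt9 and Syt12 had at most 9 counts in a library and did not pass in any comparison, and nor did Vamp7-ps, at 11 to 45 counts. Snap25 and Syt1 form the machinery of synaptic release, for which a count of 0 allows at most 3 counts in a library, as far as counting error goes.

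Per kilobase of the canonical transcript, the highest levels belonged to Vamp8, the R-SNARE of granules and late endosomes, and Stxbp2 (Munc18-2), the partner of syntaxin 11. In MDSC these were 1871 ± 113 and 1903 ± 53.0 normalized counts per kilobase (SD, n = 4), which did not differ beyond their spread. In CITED they were 3163 ± 133 and 2582 ± 83.7 per kilobase. The late endosomal syntaxin Stx7 came next, at 1399 ± 65.9 per kilobase in MDSC, ahead of Vamp4 at 1283 ± 61.9 and Vamp3 at 1224 ± 36.1, which were neighbours within about their spread. The 17 synaptotagmins lay far lower. Syt13 was their highest member, at 31.3 ± 2.99 per kilobase in MDSC and 49.8 ± 7.91 in MDSC-NP-Blk.

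**Figure D1:**
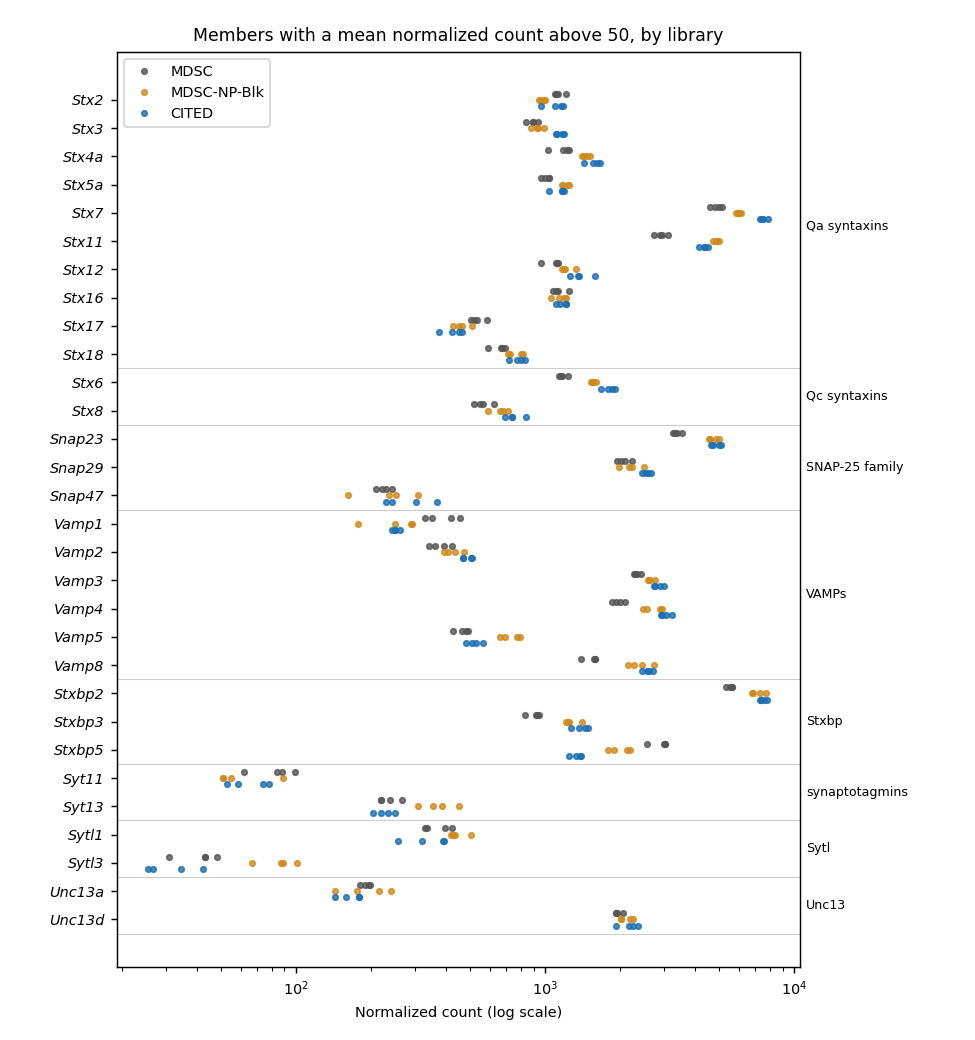
Normalized count (x axis, log scale) of 30 members with a mean above 50, by gene and role, with 1 point per library and color for the group. Stx7 lies at 4593 or higher in every library, whereas Syt11 and Sytl3 lie near or below 100.

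The comparisons ask what nanoparticle conjugation changed in MDSCs and what rapamycin in the particles added. They share libraries, since CITED and MDSC-NP-Blk were both set against the same MDSC libraries and MDSC-NP-Blk served as reference for CITED too. A gene passed at an adjusted p below 0.05 in edgeR's quasi-likelihood test over 17676 symbols, and was called at the study's thresholds when its absolute log2 fold change was also at least 1. In CITED against MDSC, 19 of 48 members were higher and 3 lower, where 22.2% of all tested symbols were higher and 22.2% lower. With a mean above 50, 22 of 31 members passed (71.0%) beside 67.9% of all 10555 such symbols, so the share that passed was near the background, and the median log2 fold change was 0.30 beside 0.02. Members called numbered 0 higher and 1 lower, beside 3.28% and 6.70% of all symbols.

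In MDSC-NP-Blk against MDSC, 18 members were higher and 4 lower, beside 19.9% and 18.6% of all symbols. Called members were 2 higher and 0 lower, beside 1.88% and 2.86%. With a mean above 50, 64.5% of 31 members passed, beside 60.4% of such symbols, and medians were 0.22 and 0.00. In CITED against MDSC-NP-Blk, 6 members were higher and 6 lower, beside 10.5% and 11.4% of all symbols, and 1 was called higher and 1 lower, beside 0.651% and 2.00%. Shares above the limit were 35.5% and 34.9%.

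These directions against MDSC depend on the library scaling. The TMM factors, which correct for RNA composition, were 1.12 to 1.15 in MDSC, 0.938 to 0.947 with blank particles and 0.921 to 0.944 in CITED. Without them, the median of all 10555 symbols moved by −0.27 in CITED and by −0.26 in MDSC-NP-Blk against MDSC. Then 8 members were higher and 10 lower in CITED, and 8 higher and 12 lower in MDSC-NP-Blk. In CITED the 8 were Stx7, Stx11, Stx6, Snap23, Vamp8, Vamp4, Stxbp2 and Stxbp3, and in MDSC-NP-Blk they were Stx11, Snap23, Vamp8, Vamp4, Vamp5, Stxbp3, Syt13 and Sytl3. Log2 fold changes in CITED against MDSC that no longer passed included 0.08 for Stx3, 0.15 for Stx4a, 0.09 for Stx12 and 0.13 for Stx8. Others were 0.03 for Snap29, 0.08 for Vamp2 and 0.02 for Vamp3. The sign turned for Stx5a (−0.10), Stx18 (−0.02) and Unc13d (−0.12), which did not pass either. A rise below therefore means a rise relative to the bulk of genes. CITED against MDSC-NP-Blk was little touched, with a shift of −0.01 and 6 members higher and 6 lower.

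**Figure D2:**
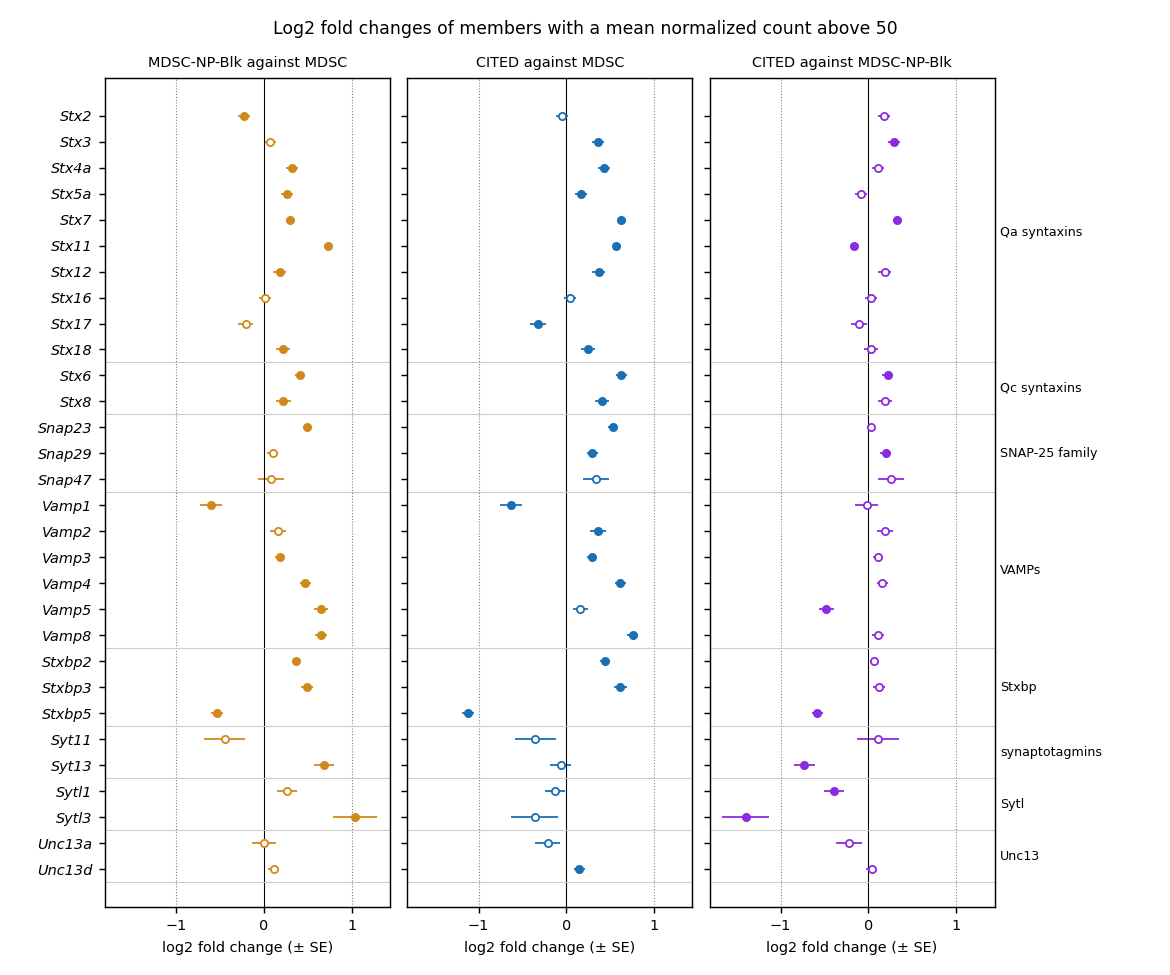
Log2 fold change (x axis, ± SE) of 30 members with a mean above 50 in the 3 comparisons, by gene and role. Filled points passed at an adjusted p below 0.05, open points did not, and dotted lines mark −1 and 1. Against MDSC most syntaxins, VAMPs and Munc18 genes lie to the right of 0 with TMM factors, although without them only 8 members passed as higher in either comparison, and Stxbp5 lies to the left in all 3 panels.

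Syntaxins of the Qa class sit on target membranes. Of 12 tested, 7 were higher and 1 lower in CITED against MDSC, beside 22.2% and 22.2% of all symbols. In MDSC-NP-Blk against MDSC 6 were higher and 1 lower, beside 19.9% and 18.6%. Of symbols with a mean above 50, these shares were 35.6% and 32.3%, and 32.1% and 28.3%. Without composition factors the counts of Qa syntaxins were 2 and 3, and 1 and 4. All 17676 symbols then gave 2192 higher and 6323 lower, and 1662 and 6107. Stx7, which serves fusion of late endosomes with lysosomes, had normalized counts of 4800, 5123, 4593 and 4983 in MDSC, 5973, 5860, 6133 and 5995 with blank particles, and 7901, 7435, 7314 and 7517 in CITED. The groups did not overlap, with CITED highest and MDSC lowest. Its log2 fold changes were 0.63 ± 0.0478 (SE) in CITED and 0.30 ± 0.0477 with blank particles against MDSC, with adjusted p of 2.4e-13 and 3.8e-06 from edgeR. CITED was also above MDSC-NP-Blk, by 0.33 ± 0.0476 (adjusted p = 1.4e-06 from edgeR). Without composition factors the difference of MDSC-NP-Blk from MDSC in Stx7 was 0.04 and did not pass. Stx7 lies on chromosome 10 from 24025171 to 24066122 on the plus strand (GRCm39, GENCODE, as for all gene positions here).

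Stx11 acts in granule release by cytotoxic lymphocytes and is mutated in an inherited hemophagocytic disease, as are Stxbp2 and Unc13d. It had the order MDSC, CITED, MDSC-NP-Blk, with no overlap between groups. Its normalized counts were 3127, 2940, 2900 and 2738 in MDSC, 4852, 4726, 4914 and 4998 with blank particles, and 4354, 4150, 4394 and 4523 in CITED. The rises over MDSC were 0.73 ± 0.0504 with blank particles and 0.57 ± 0.0505 in CITED (adjusted p = 4.1e-14 and 8.8e-12 from edgeR). CITED was lower than MDSC-NP-Blk by a log2 fold change of −0.16 ± 0.05 (adjusted p = 0.0165 from edgeR). That small difference no longer passed without MDSC-NP-Blk replicate 4 (−0.15, adjusted p = 0.0512) or without CITED replicate 2 (−0.14, adjusted p = 0.0750). Stx11 lies on chromosome 10 from 12813953 to 12840259.

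Plasma membrane syntaxins differed in which group moved. Stx3, found on granules and the plasma membrane, had 842 to 939 normalized counts in MDSC, 882 to 990 with blank particles and 1109 to 1193 in CITED, so that CITED lay above both other groups. It rose in CITED by 0.36 ± 0.0682 against MDSC and by 0.29 ± 0.0684 against MDSC-NP-Blk (adjusted p = 3.7e-05 and 0.00144 from edgeR). The gene shares 53.5% of its 31-base words with opposite-strand transcripts, mainly of Mrpl16, whose mean normalized count was 320, 262 and 318 in MDSC, MDSC-NP-Blk and CITED, so Mrpl16 too was higher in CITED than with blank particles. Its part in the second difference of Stx3 was not tested. Stx4a, the general plasma membrane syntaxin, had 1026 to 1246 in MDSC, 1407 to 1513 with blank particles and 1437 to 1672 in CITED, and both conjugated groups lay above MDSC. Its log2 fold changes against MDSC were 0.32 ± 0.0677 and 0.43 ± 0.0678 (adjusted p = 2.3e-04 and 2.0e-06 from edgeR). After a transcript length correction the first of these was 0.13 and did not pass. Without composition factors it was 0.06 and did not pass either.

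Of the other syntaxins, 2 were lower in a conjugated group. Stx17, the autophagosomal syntaxin, had 507, 533, 587 and 521 normalized counts in MDSC and 374, 422, 466 and 451 in CITED, with no overlap. The log2 fold change was −0.32 ± 0.0898 (adjusted p = 0.00298 from edgeR), but −0.13 (adjusted p = 0.248) after the length correction. Stx2 was lower in MDSC-NP-Blk, at 945 to 1005 normalized counts beside 1102 to 1213 in MDSC (−0.23 ± 0.0702, adjusted p = 0.0095 from edgeR). CITED differed from MDSC by −0.05 (adjusted p = 0.608 from edgeR) and from MDSC-NP-Blk by 0.18 ± 0.0708 (adjusted p = 0.0736).

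The syntaxins of recycling endosomes, the Golgi and the endoplasmic reticulum had smaller differences. Stx12 was higher in CITED than in MDSC by 0.37 ± 0.0731 (adjusted p = 7.3e-05 from edgeR). In MDSC-NP-Blk it was higher by 0.18 ± 0.0732 (adjusted p = 0.0496), but not in DESeq2's test (adjusted p = 0.0603) and −0.08 without composition factors. Stx5a and Stx18 rose in both conjugated groups by 0.17 to 0.26, and without composition factors their differences were −0.10 to −0.01. In CITED, Stx5a also no longer passed after the length correction (0.10, adjusted p = 0.212) or without MDSC replicate 2 or 4 or CITED replicate 1, 3 or 4 (0.15 to 0.17). Stx18 no longer passed without MDSC replicate 1 in CITED (0.21) or with blank particles (0.17), and with blank particles also without MDSC-NP-Blk replicate 2 (0.18) or 4 (0.20). Stx16 of the trans-Golgi network had log2 fold changes of 0.01 to 0.04, none of which passed.

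Qc syntaxins add the last helix of endosomal complexes. Both members rose in both conjugated groups against MDSC, where 22.2% of all symbols rose in CITED and 19.9% in MDSC-NP-Blk. Without composition factors 1 of 2 passed in CITED and 0 in MDSC-NP-Blk. Stx6, of the trans-Golgi network and early endosomes, had 1162, 1166, 1139 and 1235 normalized counts in MDSC, 1557, 1533, 1599 and 1544 with blank particles, and 1789, 1686, 1866 and 1909 in CITED. The gene lies on chromosome 1 from 155034417 to 155084002 (plus strand). As with Stx7, no group overlapped another and CITED was highest. Its log2 fold changes were 0.41 ± 0.0606 for MDSC-NP-Blk and 0.63 ± 0.0606 for CITED against MDSC, and CITED exceeded MDSC-NP-Blk by 0.22 ± 0.0601 (adjusted p = 1.0e-06, 8.8e-11 and 0.00656 from edgeR). Without composition factors the first of these was 0.14 and did not pass. Stx8, the late endosomal partner of Stx7, was higher by 0.41 ± 0.0830 in CITED and 0.22 ± 0.0830 with blank particles (adjusted p = 9.1e-05 and 0.0307 from edgeR), the second of which became −0.04 without composition factors. In MDSC-NP-Blk, Stx8 no longer passed when any of 6 of the 12 libraries was left out, with values of 0.18 to 0.22 (MDSC replicates 1, 3 and 4, and MDSC-NP-Blk replicates 1, 2 and 4).

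In the SNAP-25 family, Snap23 replaces the neuronal Snap25 at the plasma membrane of most cells. Snap23 had 3329, 3392, 3256 and 3538 normalized counts in MDSC, 4572, 4850, 4992 and 4606 with blank particles, and 4752, 5087, 4626 and 4997 in CITED. Both conjugated groups lay above MDSC and overlapped each other. The log2 fold changes against MDSC were 0.49 ± 0.0502 and 0.53 ± 0.0503 (adjusted p = 4.9e-10 and 6.3e-11 from edgeR), and CITED differed from MDSC-NP-Blk by 0.03 ± 0.05 (adjusted p = 0.718). Of its words, 47.4% are shared with opposite-strand transcripts, mainly of Lrrc57, whose mean normalized count was 241 to 250 in the 3 groups. Opposite-strand shares of 13.6% to 28.9% were also found for Stx5a, Stx4a, Stx18, Vamp8, Vamp5 and Snap47. Snap29, which serves autophagosomes, had 1944 to 2233 in MDSC, 1990 to 2495 with blank particles and 2462 to 2655 in CITED. It was higher in CITED, by 0.30 ± 0.0619 against MDSC and 0.20 ± 0.0620 against MDSC-NP-Blk (adjusted p = 1.1e-04 and 0.0173 from edgeR). The second difference no longer passed without MDSC-NP-Blk replicate 1 (0.15, adjusted p = 0.0749), without CITED replicate 1 (0.18, adjusted p = 0.0563), or with MDSC-NP-Blk replicates 2 and 3 alone (0.13, adjusted p = 0.156). Snap47, at 162 to 368 normalized counts in single libraries, did not pass in any comparison.

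VAMPs are the R-SNAREs of vesicles. Of 7 tested, 4 rose and 1 fell in each conjugated group against MDSC. Among all symbols, 22.2% rose and 22.2% fell in CITED, beside 19.9% and 18.6% in MDSC-NP-Blk. Without composition factors the VAMPs gave 2 rises and 1 fall for CITED, and 3 rises and 2 falls for MDSC-NP-Blk. Over all 17676 symbols, 2192 then rose and 6323 fell for CITED, and 1662 rose and 6107 fell for MDSC-NP-Blk. Vamp8 had 1585, 1587, 1569 and 1396 normalized counts in MDSC, 2731, 2447, 2165 and 2276 with blank particles, and 2617, 2727, 2567 and 2464 in CITED. Every conjugated library was above every MDSC library. Vamp8 lies on chromosome 6 from 72359012 to 72368482 (minus strand), next to Vamp5 at 72345777 to 72357536 on the same strand. Its rises of 0.76 ± 0.0649 in CITED and 0.65 ± 0.0648 with blank particles (adjusted p = 4.7e-12 and 3.4e-10 from edgeR) compare with 0.11 ± 0.0641 between these groups (adjusted p = 0.255).

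Vamp4, of the trans-Golgi network and endosomes, had 1934, 2091, 1867 and 1994 normalized counts in MDSC, 2911, 2563, 2476 and 2947 with blank particles, and 3240, 3056, 2921 and 2943 in CITED. In MDSC-NP-Blk, replicates 1 and 4 were the 2 higher libraries. The gene rose by 0.62 ± 0.0606 in CITED and 0.47 ± 0.0606 with blank particles (adjusted p = 9.2e-11 and 8.6e-08 from edgeR), and the second value was 0.56 with replicates 1 and 4 alone and 0.35 with replicates 2 and 3 alone. Vamp3, of recycling endosomes, had 2275 to 2432 in MDSC, 2605 to 2778 with blank particles and 2752 to 3005 in CITED. Its differences from MDSC were smaller, 0.29 ± 0.0529 in CITED and 0.18 ± 0.0528 with blank particles (adjusted p = 2.0e-05 and 0.00497 from edgeR), and without composition factors they were 0.02 and −0.08. The length correction gave 0.05 for MDSC-NP-Blk, which did not pass. Vamp2, a synaptobrevin, rose in CITED by 0.36 ± 0.0916 (adjusted p = 0.00151 from edgeR), but by 0.12 (adjusted p = 0.263) after the length correction.

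A pair of VAMPs went other ways. Vamp5, first described in muscle, had 483, 492, 428 and 465 normalized counts in MDSC, 796, 771, 661 and 694 with blank particles, and 512, 483, 530 and 563 in CITED, so it was high with blank particles and near MDSC with rapamycin. It was higher in MDSC-NP-Blk than in MDSC by 0.65 ± 0.0833 and lower in CITED than in MDSC-NP-Blk by a log2 fold change of −0.48 ± 0.0837 (adjusted p = 7.2e-08 and 3.0e-05 from edgeR), while CITED and MDSC differed by 0.16 ± 0.0849 (adjusted p = 0.128). Vamp1, the other synaptobrevin, fell in both conjugated groups. It had 351, 457, 330 and 418 normalized counts in MDSC, 177, 290, 294 and 250 with blank particles, and 251, 249, 261 and 244 in CITED. The log2 fold changes were −0.61 ± 0.125 and −0.63 ± 0.126 (adjusted p = 1.5e-04 and 8.2e-05 from edgeR). With MDSC-NP-Blk replicates 1 and 4 alone the first was −0.87, and with replicates 2 and 3 alone −0.41.

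Stxbp5 (tomosyn), an inhibitor that binds Q-SNAREs in place of a VAMP, was the only member called in CITED against MDSC. Its normalized counts were 3049, 2572, 2994 and 3040 in MDSC, 1789, 2131, 2190 and 1893 with blank particles, and 1398, 1255, 1330 and 1380 in CITED. The groups did not overlap, and CITED was lowest. The log2 fold change was −1.12 ± 0.0674 in CITED and −0.54 ± 0.0659 with blank particles against MDSC, and −0.58 ± 0.0677 of CITED from MDSC-NP-Blk (adjusted p = 5.7e-16, 2.3e-08 and 2.7e-08 from edgeR). Over all alternatives for CITED against MDSC the value ran from −1.39 to −1.01, and it passed in each. Blank-particle replicates 1 and 4, which had the lower counts, gave −0.68 against MDSC, and replicates 2 and 3 gave −0.43. Stxbp5 lies on chromosome 10 from 9630985 to 9777400 and shares 10.2% of its words with opposite-strand transcripts.

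Munc18 proteins clasp syntaxins, and the ones with the highest counts here rose with conjugation. Stxbp2 had 5552, 5657, 5616 and 5312 normalized counts in MDSC, 7753, 6822, 6801 and 7323 with blank particles, and 7558, 7369, 7278 and 7829 in CITED. No conjugated library overlapped MDSC, and the rises were 0.37 ± 0.0495 and 0.44 ± 0.0495 (adjusted p = 1.2e-07 and 2.5e-09 from edgeR). Without composition factors the first was 0.11 and did not pass. Stxbp3 (Munc18c), the partner of syntaxin 4, had 832 to 948 in MDSC, 1212 to 1406 with blank particles and 1268 to 1492 in CITED. It was higher by 0.49 ± 0.0707 and 0.62 ± 0.0708 (adjusted p = 5.1e-07 and 3.7e-09 from edgeR). It shares 23.7% of its words with the pseudogene Stxbp3-ps, which had at most 2 counts in a library.

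Stxbp6 (amisyn), at 11 to 32.3 normalized counts, was called higher in MDSC-NP-Blk than in MDSC (1.07 ± 0.419, adjusted p = 0.0416 from edgeR). That call was lost when any of 7 libraries was left out (each MDSC replicate, and MDSC-NP-Blk replicates 1, 2 and 3), with values of 0.99 to 1.11 and adjusted p of 0.0618 to 0.108. Stxbp4, at 5.79 to 28 normalized counts, did not pass in any comparison, but was called lower in CITED than in MDSC without CITED replicate 1.

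**Figure D3:**
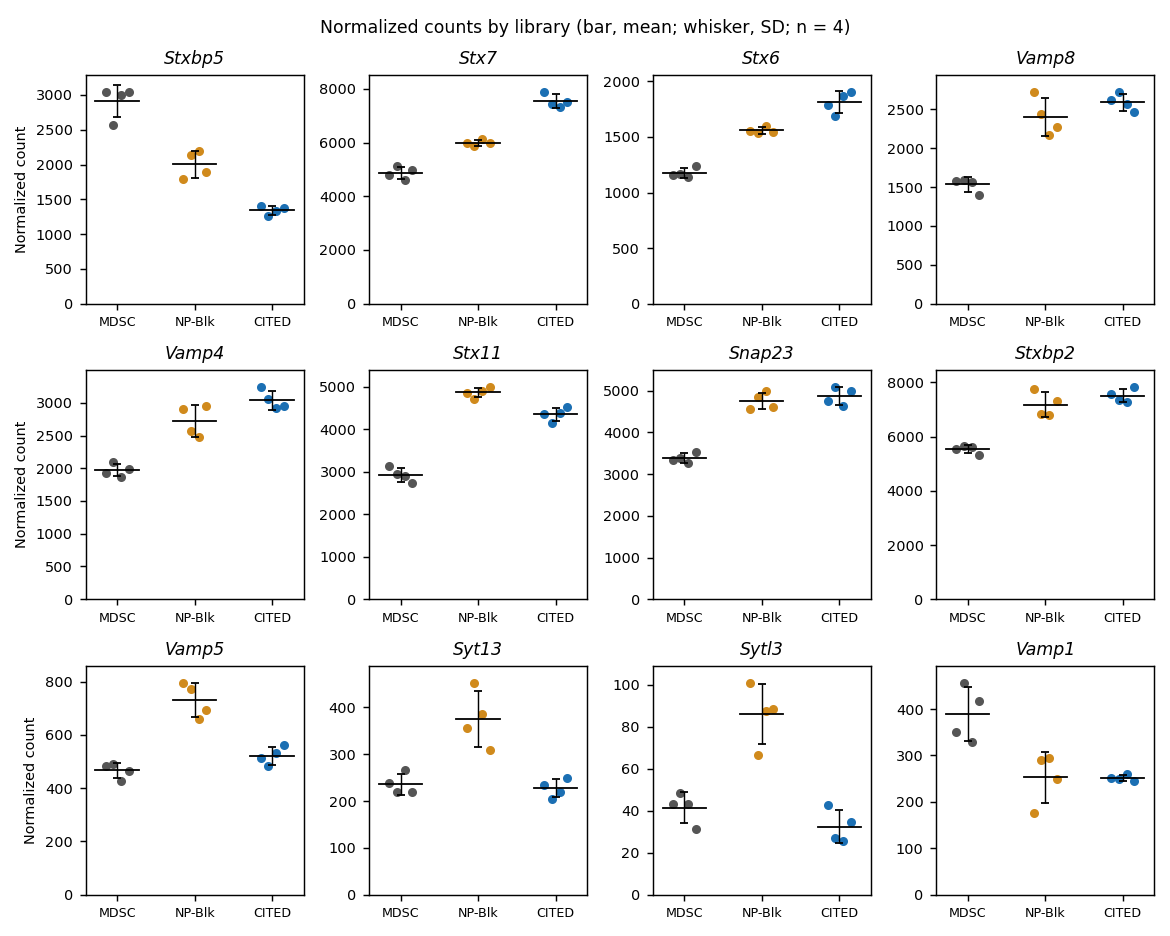
Normalized counts (y axis, from 0) of 12 members in each library, with the mean (horizontal line) and SD (whisker) of the 4 replicates of a group. Stxbp5 steps down from MDSC to MDSC-NP-Blk to CITED and Stx7 and Stx6 step up, whereas Vamp5, Syt13 and Sytl3 are highest in MDSC-NP-Blk.

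Of the 10 synaptotagmins tested, 2 had a mean above 50. In CITED against MDSC 0 of the 10 passed in edgeR's test, beside 44.5% of all symbols, and 0 in DESeq2's. Without composition factors 2 (Syt11 and Syt13) passed as lower. At an unadjusted p below 0.05 there was 1 in edgeR's test, Syt9, which had at most 5 counts in a library. Syt13, which lacks calcium binding, was highest with blank particles. It had 239, 219, 267 and 220 normalized counts in MDSC, 355, 453, 386 and 310 with blank particles, and 235, 205, 220 and 249 in CITED. All MDSC-NP-Blk libraries lay above all others. Syt13 lies on chromosome 2 from 92745339 to 92790093 (plus strand). Blank particles differed from MDSC by 0.68 ± 0.115 on the log2 scale, and CITED differed from blank particles by −0.73 ± 0.117 (adjusted p = 9.3e-06 and 9.0e-06 from edgeR). CITED and MDSC differed by −0.06 ± 0.119 (adjusted p = 0.749). With replicates 2 and 3 of MDSC-NP-Blk alone the first was 0.83, and with replicates 1 and 4 alone 0.47.

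Syt7, a calcium sensor for lysosome exocytosis, went the other way. Its normalized counts were 40.8, 28.5, 42.3 and 30.1 in MDSC, 26.7, 19.3, 10.4 and 17.5 with blank particles, and 35.0, 57.3, 41.0 and 24.1 in CITED. CITED overlapped both other groups. The log2 fold change was −0.95 ± 0.367 in MDSC-NP-Blk against MDSC and 1.09 ± 0.370 in CITED against MDSC-NP-Blk (adjusted p = 0.0394 and 0.0303 from edgeR), the second of which was called. Both differences passed narrowly, and each failed when any of several libraries was left out. The first failed without MDSC replicate 1 or 3 or MDSC-NP-Blk replicate 2, 3 or 4 (−0.98 to −0.76). It also failed after the transcript length correction (−0.74, adjusted p = 0.122 from edgeR). The second failed without MDSC-NP-Blk replicate 2, 3 or 4 or CITED replicate 2 or 3 (0.85 to 1.12). Syt11, which limits phagocytosis in macrophages, had 50.9 to 99.2 normalized counts and did not pass in any comparison.

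Synaptotagmin-like proteins bind Rab27, which marks secretory granules. Sytl3 was called in both comparisons with MDSC-NP-Blk. It had 43.1, 48.4, 43.2 and 31.1 normalized counts in MDSC, 101, 66.7, 87.3 and 88.6 with blank particles, and 42.5, 26.8, 25.5 and 34.7 in CITED. The 4 blank-particle libraries were above the other 8. Sytl3 lies on chromosome 17 from 6926492 to 7005838 (plus strand). The log2 fold change was 1.04 ± 0.253 with blank particles against MDSC, and CITED differed from MDSC-NP-Blk by −1.40 ± 0.264 (adjusted p = 0.00108 and 1.0e-04 from edgeR). Without 1 library the first ran from 0.93 to 1.15 and passed each time. Sytl3 shares 58.9% of its words on the same strand with Gm29719, which had at most 4 counts in a library. Sytl1, which acts in neutrophil granule release, had 330 to 423 in MDSC, 420 to 503 with blank particles and 256 to 393 in CITED. It was lower in CITED than in MDSC-NP-Blk by a log2 fold change of −0.39 ± 0.114 (adjusted p = 0.0111 from edgeR), but not without CITED replicate 1 (−0.28, adjusted p = 0.0756) or with MDSC-NP-Blk replicates 2 and 3 alone (−0.32, adjusted p = 0.0585). Sytl4, at 14.7 to 36.9 normalized counts, did not pass.

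Of the Unc13 priming factors, Unc13d (Munc13-4), the form of blood cells, had 1921 to 2056 normalized counts in MDSC, 2013 to 2262 with blank particles and 1926 to 2366 in CITED. These ranges overlapped. The log2 fold change of 0.15 ± 0.0618 in CITED against MDSC passed narrowly (adjusted p = 0.0474 from edgeR) and was −0.12 without composition factors. It failed when MDSC replicate 1, 2 or 4, MDSC-NP-Blk replicate 2, or CITED replicate 2, 3 or 4 was left out (0.11 to 0.15). Unc13a, a neuronal form at 143 to 241 normalized counts, did not pass, and 25.3% of its words lie opposite transcripts mainly of Colgalt1, with means of 4718 to 5850. Unc13b, at 1.17 to 23.7, did not pass either (−1.61 ± 0.664 in MDSC-NP-Blk against MDSC, adjusted p = 0.0535 from edgeR), though it was called lower there without MDSC-NP-Blk replicate 3 and in DESeq2's test.

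Promoters were searched for motifs, since mTOR is known to hold back TFEB, a factor that binds the CLEAR element of lysosomal genes. The RefSeq table (build GRCm38.p6) held promoters of 46 members, and of 26 of the 31 with a mean above 50, in 31 records of 300 bases from 250 before to 50 after the start. The E-box CACGTG, on either strand, was found in 3 of 31 (9.68%; Stx6, Vamp4 and Stxbp2) beside 7.15% of 32851 promoters in all. The longer CLEAR core TCACGTGA, which contains the E-box, was found in Stx6 alone (3.23%, beside 0.974%). GGGNNTTCC, the kB motif, was found in Stx4a and Stx5a (6.45%, beside 5.82%), and the STAT motif TTCCNGGAA in none (beside 1.15%). The sequences are the 250 bases before the start, 5′ to 3′ on the gene's strand, with a matched motif in capitals, for the 3 genes chosen because they held an E-box and for Stxbp5, the member called in CITED against MDSC, which had no match. Stx7 and Stx11 had no match either and are not shown. Stx6 is at chr1:155158453-155158702 (+), Vamp4 at chr1:162570265-162570514 (+, the upstream of 2 annotated starts), Stxbp2 at chr8:3630859-3631108 (+) and Stxbp5 at chr10:9901041-9901290 (−).
Stx6: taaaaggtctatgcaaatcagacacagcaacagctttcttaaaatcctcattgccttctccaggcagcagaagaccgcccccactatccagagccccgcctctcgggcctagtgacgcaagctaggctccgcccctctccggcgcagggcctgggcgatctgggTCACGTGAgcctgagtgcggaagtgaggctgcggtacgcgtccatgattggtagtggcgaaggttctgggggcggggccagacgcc
Vamp4: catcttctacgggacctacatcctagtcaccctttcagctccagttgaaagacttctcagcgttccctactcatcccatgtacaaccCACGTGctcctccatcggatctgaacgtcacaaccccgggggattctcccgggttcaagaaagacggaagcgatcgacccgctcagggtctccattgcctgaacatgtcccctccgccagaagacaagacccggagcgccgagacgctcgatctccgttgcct
Stxbp2: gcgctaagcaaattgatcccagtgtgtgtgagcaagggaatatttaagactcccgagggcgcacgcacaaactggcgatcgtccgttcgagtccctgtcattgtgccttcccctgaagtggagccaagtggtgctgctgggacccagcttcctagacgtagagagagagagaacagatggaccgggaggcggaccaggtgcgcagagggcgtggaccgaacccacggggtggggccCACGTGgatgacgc
Stxbp5: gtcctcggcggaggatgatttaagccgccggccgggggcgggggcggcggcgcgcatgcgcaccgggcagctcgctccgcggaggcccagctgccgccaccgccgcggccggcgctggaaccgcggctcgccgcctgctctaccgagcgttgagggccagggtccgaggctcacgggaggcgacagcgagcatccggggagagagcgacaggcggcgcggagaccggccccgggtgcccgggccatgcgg
Counted back from the start, the CLEAR core of Stx6 begins at base −86, and the E-boxes of Vamp4 and Stxbp2 at −163 and −14. Their share of G and C was 61.2%, 57.2% and 60.4%, and that of Stxbp5 was 78.4%. A match describes letters in this window and shows no binding.

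The other genes of the pathway were taken from a list of 58, of which 54 were tested. In CITED against MDSC 7 were higher and 16 lower, in MDSC-NP-Blk against MDSC 7 and 14, and in CITED against MDSC-NP-Blk 5 and 6. The shares that passed were 42.6%, 38.9% and 20.4%, near the 44.5%, 38.6% and 22% of all symbols. Median log2 fold changes of the list were −0.05, −0.14 and 0.07, beside −0.05, −0.03 and 0.00 for all tested symbols. Without composition factors the first 2 comparisons gave 6 and 31, and 2 and 28. All 17676 symbols then gave 2192 higher and 6323 lower, and 1662 and 6107. The other SM proteins, relatives of Munc18 at the endoplasmic reticulum, Golgi and endosomes, gave 0 higher and 4 lower of 5 in CITED and 0 higher and 5 lower in MDSC-NP-Blk, beside 22.2% higher and 22.2% lower, and 19.9% and 18.6%, of all symbols. Without composition factors they gave 0 higher and 5 lower in each. Of 7 tested Stxbp genes 3 were higher and 1 lower in each, but without composition factors 2 were higher and 2 lower in CITED, and 1 higher and 2 lower in MDSC-NP-Blk. Scfd2, among the other SM proteins and named after its values were seen, differed from MDSC by −1.16 ± 0.153 in CITED and −0.53 ± 0.146 with blank particles (adjusted p = 7.3e-08 and 0.00338 from edgeR).

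Use1, a SNARE of the endoplasmic reticulum, rose in both groups, from 1147 ± 40.1 normalized counts in MDSC to 2329 ± 123 with blank particles and 2502 ± 108 in CITED (SD, n = 4). Its log2 fold changes were 1.02 ± 0.0584 and 1.13 ± 0.0585 (adjusted p = 4.6e-16 and 1.1e-17 from edgeR). The exocyst tethers vesicles to the plasma membrane. Of its 12 tested genes, 1 rose and 5 fell in CITED against MDSC, and 1 rose and 3 fell with blank particles. Among all symbols, 22.2% rose and 22.2% fell in CITED, beside 19.9% and 18.6% with blank particles. Without composition factors the exocyst gave 1 rise and 6 falls for CITED, and 1 rise and 7 falls with blank particles. Over all 17676 symbols, 2192 then rose and 6323 fell for CITED, and 1662 rose and 6107 fell with blank particles. Exoc3 rose by 0.61 ± 0.0618 with blank particles and 0.74 ± 0.0619 in CITED (adjusted p = 3.8e-10 and 2.8e-12 from edgeR), whereas Exoc4 was lower, at −0.47 ± 0.0726 and −0.43 ± 0.0728 (adjusted p = 2.0e-06 and 6.1e-06).

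Others separated CITED from MDSC-NP-Blk. Exoc6 had 2829 ± 74.6 normalized counts in MDSC, 2846 ± 80.7 with blank particles and 2026 ± 74.8 in CITED, and was lower in CITED than in MDSC-NP-Blk by a log2 fold change of −0.49 ± 0.0527 (adjusted p = 4.7e-09 from edgeR). Baiap3, a relative of the Munc13 proteins, had 237 ± 18.7, 189 ± 27.4 and 66.4 ± 12 normalized counts in the same order. Its log2 fold change was −1.83 ± 0.154 against MDSC and −1.50 ± 0.156 against MDSC-NP-Blk (adjusted p = 2.7e-12 and 2.2e-09 from edgeR). Vps18, of the HOPS complex that tethers late endosomes and lysosomes, rose in CITED by 0.61 ± 0.0568 against MDSC and 0.41 ± 0.0567 against MDSC-NP-Blk (adjusted p = 3.3e-11 and 7.5e-07 from edgeR). In MDSC-NP-Blk against MDSC it was 0.20 ± 0.0570 (adjusted p = 0.00417 from edgeR), and −0.06 without composition factors. Myof (myoferlin), a calcium-binding protein of membrane repair, was lowest in MDSC-NP-Blk, at 2327 ± 339 beside 3483 ± 299 in MDSC and 3695 ± 290 in CITED. It differed by −0.58 ± 0.0739 from MDSC, and CITED differed from MDSC-NP-Blk by 0.67 ± 0.0741 (adjusted p = 5.6e-08 and 9.8e-09 from edgeR).

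**Figure D4:**
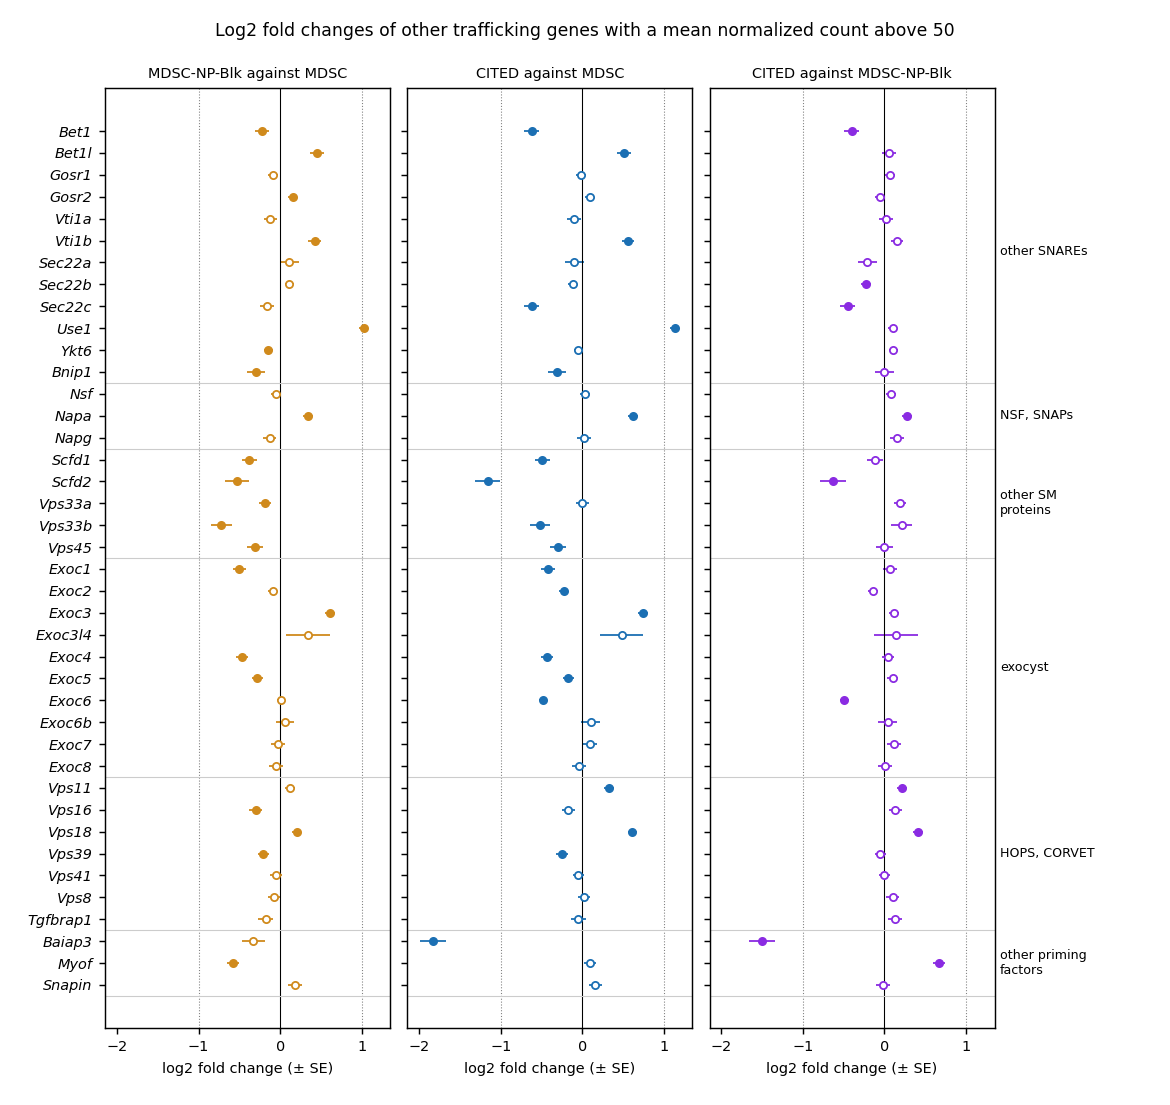
Log2 fold change (x axis, ± SE) of the 40 other trafficking genes with a mean normalized count above 50 in the 3 comparisons, by gene and list. Filled points passed at an adjusted p below 0.05. Use1 lies beyond 1 in both comparisons with MDSC, and Baiap3 lies beyond −1 in both panels of CITED.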

How the data were processed

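RNA-seq libraries were made from poly(A) RNA and sequenced as read pairs. Per the labels and the study's methods, the authors quantified reads with Salmon 1.4.0 against GENCODE transcripts of GRCm39 with decoys and summed them to gene symbols by tximport in R 4.3.2. The GENCODE release is not given in the sources used here. The deposited values are whole-number counts per symbol, with no filter and no normalization. Such estimates share reads among overlapping or similar transcripts by likelihood, so the share of words in common with other genes is given for members with results named here where it reached 10%.

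A symbol was tested if its 12 libraries held at least 2 counts in all (17676 of 35303). Counts were normalized by TMM and tested with edgeR 4.0.16 (R 4.3.3) by the quasi-likelihood test, with all 12 libraries in 1 fit by group and Benjamini-Hochberg adjustment over all tested symbols. SE was taken as the size of a log2 fold change over the root of its F statistic. DESeq2 1.42.0, other factors and filters, a transcript length correction, a replicate block and the removal of each library were alternatives. Genome positions come from GENCODE M39 on GRCm39, and the promoters from RefSeq on GRCm38.p6. Named were called members, in each role the 3 members with the highest mean, and in each comparison the 2 lowest p in each direction among members that passed with a mean above 50. The same rule on p chose genes of the wider list, and other members are named to account for the rest, except that some are counted but not reported here by name. Members and lists were chosen with earlier results of these data known. The labels call the libraries biological replicates but do not say whether they came from separate mice or cultures, so p-values measure the spread between these samples.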

Additional observations from a re-analysis of the deposited data

Results flagged for a closer look

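In each group of 4 libraries, the gap between the extreme library and its nearest neighbour was compared with the group's range by Dixon's criterion at the 95% level. Of 78 groups tested, 4 exceeded it, and chance gives about 1 in 20. Vamp3 in MDSC-NP-Blk replicate 1 had 2778 normalized counts, above the other 3 libraries (ratio 0.903). Vamp8 in MDSC replicate 4 had 1396, below the others (0.906). Stxbp5 in MDSC replicate 2 had 2572, also below the others (0.885). Syt11 in MDSC-NP-Blk replicate 4 had 88.6, above the others (0.899).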

How the results depend on the processing

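Without composition factors, 8 members were higher, 10 lower and 2 called in CITED against MDSC, and 8 were higher and 12 lower in MDSC-NP-Blk against MDSC. Over all symbols the split was then 2192 higher and 6323 lower, and 1662 and 6107. The same setting turned the sign of Stx5a (−0.10), Stx18 (−0.02) and Unc13d (−0.12) in CITED against MDSC, and of Stx5a (−0.01), Stx12 (−0.08), Stx18 (−0.04), Stx8 (−0.04), Vamp3 (−0.08) and Vps18 (−0.06) in MDSC-NP-Blk against MDSC. With no filter on low counts, 1 member was called in MDSC-NP-Blk against MDSC and 1 in CITED against MDSC-NP-Blk. With MDSC-NP-Blk replicates 2 and 3 alone, a split chosen after seeing the data, 1 was called against MDSC, and with replicates 1 and 4 alone 1 was called in CITED against MDSC-NP-Blk. The cause of these changes was not tested.

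Leaving out each library in turn gave 17 to 20 higher, 3 to 4 lower and 1 to 2 called members in CITED against MDSC. With blank particles against MDSC these were 14 to 18, 3 to 6 and 1 to 3, and in CITED against MDSC-NP-Blk 5 to 8, 5 to 6 and 1 to 2. With the replicate block, 20 members were higher and 3 lower, 18 and 5, and 7 and 6 in the 3 comparisons, with 1, 2 and 2 called, and Stxbp6 no longer passed (adjusted p = 0.0874). Libraries of the same number had correlations of −0.0598 to 0.14 in their deviations, so the numbers were not taken as pairs, and no comparison had every library closest to its own number. Members with few counts, such as Syt7, Stxbp6 and Unc13b, had wide errors at this depth.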
